A study of Homo sapiens with 2 samples.

Results

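The genes described here are 9 regulators of plasminogen activation and blood coagulation: PLAU, PLAUR, PLAT, SERPINE2, SERPINB2, F3, TFPI2, THBD and PROCR. They were taken by gene symbol from the deposited tables. Each has 1 entry among the 56638 genes left after repeated values of a symbol were removed. The RNA came from TFK1, an established cholangiocarcinoma (CCA) cell line, and was sequenced in 2 libraries. The sh-MBD2 library is from TFK1 cells with knockdown of MBD2, a protein that binds methylated CpG dinucleotides, and the sh-NC library is from TFK1 cells with the negative control shRNA. Both kinds of cells were made by lentiviral infection and drug selection, and the labels name no further treatment. The comparison asks which genes differ when MBD2 is lowered. The labels do not say which of the study's shRNAs against MBD2 was used, and a single library per condition gives no measure of the variation between cultures. Thus, no p-value is given, and every interval covers counting error only.

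Plasminogen is a zymogen that circulates in plasma and is cut to plasmin, a protease that degrades fibrin and parts of the extracellular matrix. Urokinase (PLAU) makes this cut at the cell surface when held by its receptor (PLAUR), tissue-type activator (PLAT) makes it on fibrin, and both are inhibited by serpins such as SERPINE2 and SERPINB2. Coagulation starts when tissue factor (F3) meets factor VIIa. TFPI blocks that step, TFPI2 is a related inhibitor that acts mainly on plasmin and trypsin, and thrombomodulin (THBD) with the endothelial protein C receptor (PROCR) directs thrombin towards the activation of protein C. Urokinase, its receptor and tissue factor are made by many carcinomas.

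The counts summed to 14728814 in sh-MBD2 and 14467406 in sh-NC. MBD2 itself had 365 counts in sh-MBD2 and 1013 in sh-NC, a log2 fold change (log2FC, sh-MBD2 over sh-NC after TMM scaling and a prior of 0.5 counts) of -1.48 with a 95% counting interval from -1.66 to -1.31. Each such interval is an exact Clopper-Pearson interval for the share of the reads of that gene that fell in sh-MBD2. Of the 10 cholangiocyte markers examined, all had at least 10 counts when both libraries were summed, with KRT7 at 1160 and 1327 TPM and KRT8 at 3006 and 3890 TPM in sh-MBD2 and sh-NC, and KRT19 at 15.0 and 9.04 TPM. Their summed level was 4846 TPM in sh-MBD2 and 6053 TPM in sh-NC. TPM, the abundance of a transcript after division by gene length and total, is a level per gene length, and comparisons of level between genes below are on this scale. Such comparisons depend on the gene lengths used, which no interval covers. In RNA from a whole culture, fewer cells that make a transcript and less of it per cell cannot be told apart.

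RefSeq promoter windows were matched to 7 of the 9 genes by symbol, giving 9 windows because PLAU and SERPINE2 each have a pair of listed starts. The 250 bases before the start are shown for PLAU, PLAUR, F3 and TFPI2, which represent the activators, the receptor, the coagulation initiator and the inhibitors that were higher in sh-MBD2. They are written 5′ to 3′ on the strand of the gene (GRCh38.p14), with matches to the AP-1 motif TGANTCA and to the kappa B consensus in capitals. For PLAU the listed start with more CpG dinucleotides before it is shown (chr10:73910882-73911131, plus strand), and the others are PLAUR (chr19:43670170-43670419, minus strand), F3 (chr1:94541760-94542009, minus strand) and TFPI2 (chr7:93890754-93891003, minus strand).
PLAU: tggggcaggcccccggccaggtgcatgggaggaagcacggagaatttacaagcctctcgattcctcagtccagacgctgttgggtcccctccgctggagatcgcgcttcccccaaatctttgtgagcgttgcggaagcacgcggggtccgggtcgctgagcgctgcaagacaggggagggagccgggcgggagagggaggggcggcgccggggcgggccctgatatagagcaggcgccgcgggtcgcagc
PLAUR: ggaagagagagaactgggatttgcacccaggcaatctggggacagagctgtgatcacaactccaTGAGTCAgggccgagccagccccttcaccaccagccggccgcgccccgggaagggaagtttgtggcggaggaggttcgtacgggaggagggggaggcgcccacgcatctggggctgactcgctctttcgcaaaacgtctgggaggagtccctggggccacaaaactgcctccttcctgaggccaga
F3: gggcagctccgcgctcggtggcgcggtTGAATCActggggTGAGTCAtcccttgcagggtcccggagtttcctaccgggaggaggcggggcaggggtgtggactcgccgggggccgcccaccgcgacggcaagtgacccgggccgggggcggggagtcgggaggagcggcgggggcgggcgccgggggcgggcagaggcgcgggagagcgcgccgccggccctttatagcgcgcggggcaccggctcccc
TFPI2: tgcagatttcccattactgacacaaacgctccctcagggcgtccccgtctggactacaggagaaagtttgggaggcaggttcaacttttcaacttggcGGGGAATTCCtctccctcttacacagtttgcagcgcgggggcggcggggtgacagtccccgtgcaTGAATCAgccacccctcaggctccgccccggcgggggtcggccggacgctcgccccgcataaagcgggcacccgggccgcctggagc

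Each motif was searched on both strands, and the AP-1 matches did not overlap the kappa B match. The window of PLAUR held 1 AP-1 match, which begins 186 bases before the start. The window of F3 held 2, beginning 223 and 210 bases before the start. The window of TFPI2 held 1, at 87 bases, together with the kappa B match at 152 bases, the only match to this consensus among the 9 windows. The consensus searched was GGGRNNYYCC (R is A or G, Y is C or T, N is any base). Kappa B sites that depart from it, in F3 or any other window, were not counted. SERPINB2, whose sequence is not shown, also held 1 AP-1 match, so 4 of the 9 windows had one against 6.57% of 35116 windows of all genes. SERPINB2 had no reads in either library, and PLAT and THBD have no window. The windows of SERPINE2 and PROCR, both higher in sh-MBD2, held no AP-1 match. The kappa B consensus was in 9.96% of all windows, and the GC box GGGCGG in 42.6% of them and in 6 of the 9. Neither PLAU window held an AP-1 or kappa B match. CpG dinucleotides, the sites at which methylation is read by MBD2, numbered 34 in the window of F3, 24 in the printed and 4 in the other PLAU window, 28 and 6 in the SERPINE2 windows, 20 in TFPI2, 13 in PLAUR, 5 in PROCR and 0 in SERPINB2, against a median of 11 (quartiles 3 and 23) in all windows. Methylation of these sites and binding of any factor to them were not measured in these libraries.

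Of the 9 genes, 8 had at least 10 counts summed over both libraries, and SERPINB2 had none in either. All 8 were higher in sh-MBD2, where 48.9% of the 17545 genes with at least 10 counts were. Of the 8, 2 had a log2FC above 1 (PLAU and PLAT) and 0 a log2FC below -1, while 5.48% of all genes lay above 1 and 5.07% below -1. The counting interval lay above 0 for 7 of the 8, the exception being THBD, against 19.7% of all genes with an interval above 0 and 18.4% with one below. An interval excludes 0 more readily in a gene with many reads, and these shares were not matched for depth. The 9 genes were also chosen with earlier results of these data known, so the shares are a description and not a test of the set. The median log2FC of the 8 was 0.64, and that of all genes was -0.0082. Together the 9 genes had 6656 counts (514 TPM) in sh-MBD2 and 4256 counts (353 TPM) in sh-NC.

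**Figure D1:**
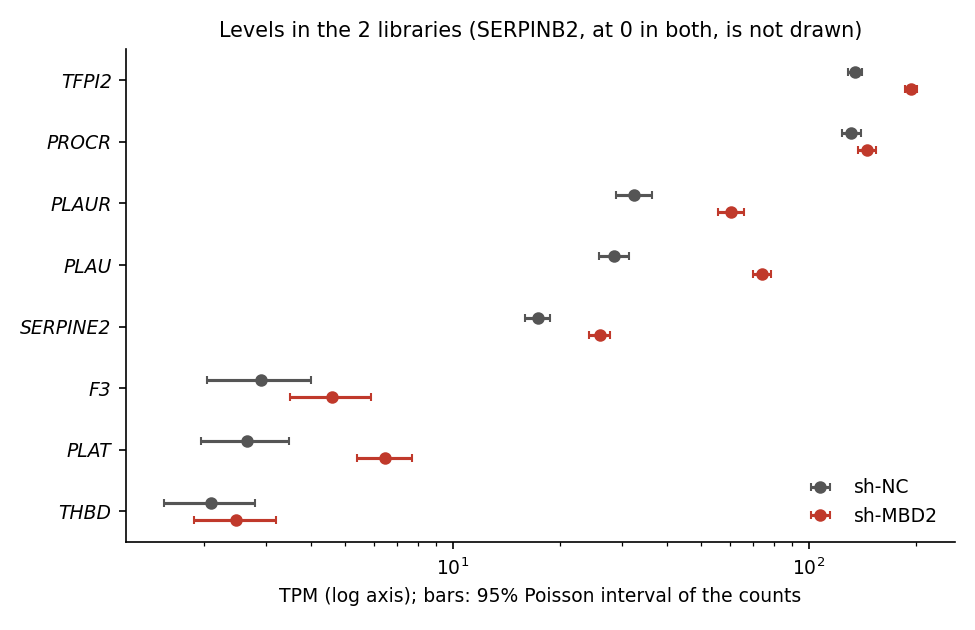
Level of each gene in TPM on a log axis in sh-NC (grey) and sh-MBD2 (red), with bars for the exact 95% Poisson interval of the counts. All 8 points of sh-MBD2 lie to the right of sh-NC, and the levels span from 2.096 TPM for THBD to 135 TPM for TFPI2 in sh-NC.

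The plasminogen activators were the genes that differed most. PLAU, which lies on chromosome 10 from 73909177 to 73917497 (plus strand, GENCODE 29, GRCh38), had 1127 counts in sh-MBD2 and 421 in sh-NC. Its level was 74.2 TPM (interval 69.9 to 78.6) in sh-MBD2 and 28.4 TPM (25.8 to 31.3) in sh-NC, so the intervals did not overlap. The log2FC of PLAU was 1.41 (1.25 to 1.58), a 2.66-fold difference, and it ranked 106th from the highest log2FC among the 11972 genes with at least 100 counts. Of the exonic bases of PLAU, 31.1% are also exonic in C10orf55 on the opposite strand. C10orf55 had 6 and 4 counts in sh-MBD2 and sh-NC, and whether the counting used strand is not given in the sources used here. PLAT, the tissue-type activator, had far fewer reads, with 128 counts in sh-MBD2 and 51 in sh-NC, which were levels of 6.47 and 2.64 TPM. The log2FC of PLAT was 1.31 with an interval from 0.84 to 1.82, and it ranked 128th. The lower end of that interval lies inside 1, unlike that of PLAU.

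PLAUR, the cell surface receptor that holds urokinase, lies on chromosome 19 from 43646095 to 43670547 (minus strand). It had 558 counts in sh-MBD2 and 291 in sh-NC, or 60.6 TPM (55.7 to 65.9) and 32.4 TPM (28.8 to 36.4). The log2FC of PLAUR was 0.93 (0.72 to 1.14), just inside the threshold of 1, and 6.06% of all genes had a log2FC as high or higher. In TPM the receptor was slightly above its ligand in sh-NC, with overlapping intervals. In sh-MBD2 urokinase was the higher of the pair in TPM and the intervals did not overlap. In counts, before division by gene length, PLAU was above PLAUR in both libraries, 1.45 times in sh-NC and 2.02 times in sh-MBD2. Which of the pair is higher in sh-NC therefore depends on the gene lengths used, which the intervals do not cover. The ratio of PLAU to PLAUR in TPM was 0.876 in sh-NC and 1.22 in sh-MBD2. The fold change of PLAU was thus 1.40 times (1.16 to 1.68) that of PLAUR, a ratio of 2 fold changes that does not depend on how the libraries are scaled. The fold changes of PLAU and PLAT were not told apart at this depth, with a ratio of 1.07 (0.74 to 1.52).

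**Figure D2:**
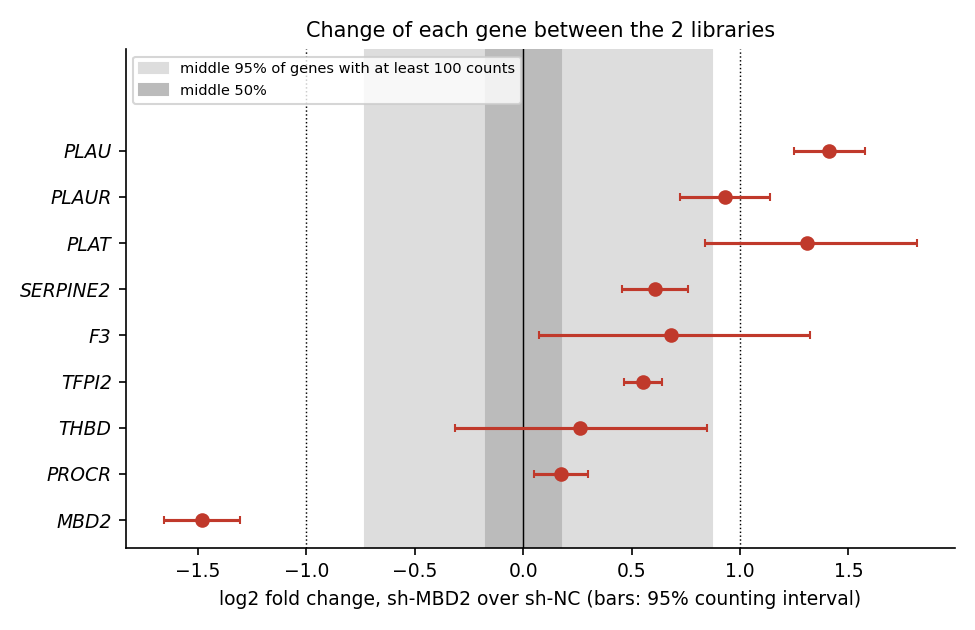
Log2FC of the 8 genes with reads and of MBD2, with bars for the 95% counting interval. Grey bands hold the middle 50% and the middle 95% of the genes with at least 100 counts, and PLAU at 1.41 and PLAT at 1.31 are the points past the dotted line at 1.

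Of the inhibitors of the activators among the 9 genes, SERPINE2 was higher in sh-MBD2, by less than PLAU, and SERPINB2 had no reads. SERPINE2 (protease nexin-1, an inhibitor of urokinase and thrombin) had 887 counts in sh-MBD2 and 579 in sh-NC, or 25.9 and 17.3 TPM, and a log2FC of 0.61 (0.45 to 0.76). SERPINB2 (PAI-2) had 0 counts in both libraries, which allows up to 3 counts, or 0.205 CPM (the count scaled to the library size) in sh-MBD2 and 0.206 CPM in sh-NC. Of the exonic bases of SERPINB2, 19.9% are shared with SERPINB10 on the same strand, which also had 0 counts. The summed level of PLAU and PLAT was 80.6 TPM in sh-MBD2 and 31.1 TPM in sh-NC, above SERPINE2 in both libraries. The fold change of PLAU was 1.75 times (1.49 to 2.04) that of SERPINE2 and 1.97 times (1.73 to 2.26) that of LRP1, a clearance receptor. The 10 such pairs reported here were chosen after the values were seen, and their intervals are not adjusted for the number of pairs compared.

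In the coagulation branch, F3 (tissue factor, on chromosome 1 from 94529225 to 94541800, minus strand) was a low transcript. It had 60 counts in sh-MBD2 and 37 in sh-NC, or 4.59 TPM (3.50 to 5.91) and 2.90 TPM (2.04 to 4.001). Its log2FC was 0.68, but with so few reads the interval ran from 0.074 to 1.32, and the TPM intervals of the libraries overlapped. TFPI2 was the most abundant of the 9 genes, with 2714 counts in sh-MBD2 and 1839 in sh-NC, or 194 TPM (187 to 202) and 135 TPM (129 to 141). Its log2FC of 0.55 (0.47 to 0.64) had the narrowest interval of the 8. TFPI, the inhibitor of tissue factor and factor VIIa, was lower in sh-MBD2. It had 990 counts in sh-MBD2 and 1672 in sh-NC, or 22.5 and 39.0 TPM, and a log2FC of -0.76 (-0.88 to -0.65). Therefore the ratio of F3 to TFPI in TPM was 0.204 in sh-MBD2 and 0.0744 in sh-NC, a difference of 2.74 times (1.77 to 4.28). The ratio of TFPI2 to TFPI differed by 2.49 times (2.26 to 2.75), whereas that of F3 to TFPI2 differed by 1.099 times, with an interval (0.71 to 1.71) on both sides of 1.

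The receptors of the protein C pathway differed least. THBD, which binds thrombin, had 58 counts in sh-MBD2 and 48 in sh-NC, which were levels of 2.47 and 2.096 TPM. The log2FC of THBD was 0.26 with an interval from -0.31 to 0.85, so a difference was not detectable at this depth. PROCR, which presents protein C, was abundant, with 1124 counts in sh-MBD2 and 990 in sh-NC, or 146 TPM (137 to 155) and 132 TPM (124 to 140). Its log2FC was 0.17 (0.050 to 0.30), and 70.3% of all genes had a lower one. The fold changes of THBD and PROCR were not told apart, with a ratio of 1.06 (0.71 to 1.61). EDEM2, which overlaps PROCR on the opposite strand in the deposited positions, had 780 and 727 counts and a log2FC of 0.093 (-0.055 to 0.24). In GENCODE 29, 12.9% of the exonic bases of PROCR are shared with AL356652.1, and 4.59% of those of TFPI2 with AC002076.1 and GNGT1, all on the opposite strand. PROC, the zymogen these receptors serve, had 12 counts in sh-MBD2 and 31 in sh-NC, a log2FC of -1.34 (-2.47 to -0.38).

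THBD and PROCR are best known from endothelium, and the endothelial markers KDR, TEK, VWF and PECAM1 had 0 counts in both libraries. The PECAM1 entry lies on a patch sequence and not on a chromosome, so its 0 may not measure the gene. Of the 10 endothelial markers, 7 had at most 3 counts in each library, and the summed level of the list was 36.8 TPM in sh-MBD2 and 37.2 TPM in sh-NC, of which EGFL7 made up 35.0 and 33.4 TPM. The platelet and megakaryocyte markers summed to 14.4 and 14.3 TPM, of which GP1BA made up 8.67 and 10.5 TPM and ITGA2B 2.26 and 2.96 TPM. Of these 6 markers, GP9 had 0 counts in both libraries, PF4 had 1 and 0, GP6 had 6 and 8, and PPBP had 11 and 1. The fibroblast markers summed to 9.11 and 4.29 TPM, of which COL1A1 was 8.01 and 3.31 TPM (log2FC 1.30), while FAP had 0 counts in both, 1 of the 8 markers, and COL1A2, DCN and PDGFRB had at most 1 in each library. The leukocyte markers summed to 20.3 and 14.5 TPM, of which CD14 made up 14.1 and 11.99 TPM, with CD52, CD68 and CD3E, 3 of the 10 markers, at 0 counts in both and PTPRC and TYROBP at 0 counts in sh-MBD2 and 1 in sh-NC. Of this list, CORO1A had 56 and 19 counts, LAPTM5 had 29 and 3, CD79A had 3 and 4 and LCP1 had 3 and 5. The hepatocyte markers summed to 2.69 and 0.763 TPM, with APOB and TTR, 2 of the 8 markers, at 0 counts in both and SERPINA1 at 39 and 11. For the higher sums of fibroblast, leukocyte and hepatocyte markers in sh-MBD2, their part in the values of the 9 genes was not tested.

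Ordered by level, the genes in sh-NC were TFPI2, PROCR, PLAUR, PLAU, SERPINE2, F3, PLAT and THBD, with SERPINB2 at 0. In this order the counting intervals of TFPI2 and PROCR overlapped, as did those of PLAUR and PLAU and those of F3, PLAT and THBD. In sh-MBD2 the order was TFPI2, PROCR, PLAU, PLAUR, SERPINE2, PLAT, F3 and THBD, in which only PLAT overlapped F3. TFPI2 at 194 TPM was therefore clear of PROCR at 146 TPM, and PLAU was clear of PLAUR. Both orders are in TPM and depend on the gene lengths used, which these intervals do not cover. TFPI2 was above 94.2% of the tested genes in sh-NC and above 96.3% in sh-MBD2, and PROCR was above 94.0% and 94.6%, while PLAU was above 69.3% of them in sh-NC and above 87.9% in sh-MBD2.

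**Figure D3:**
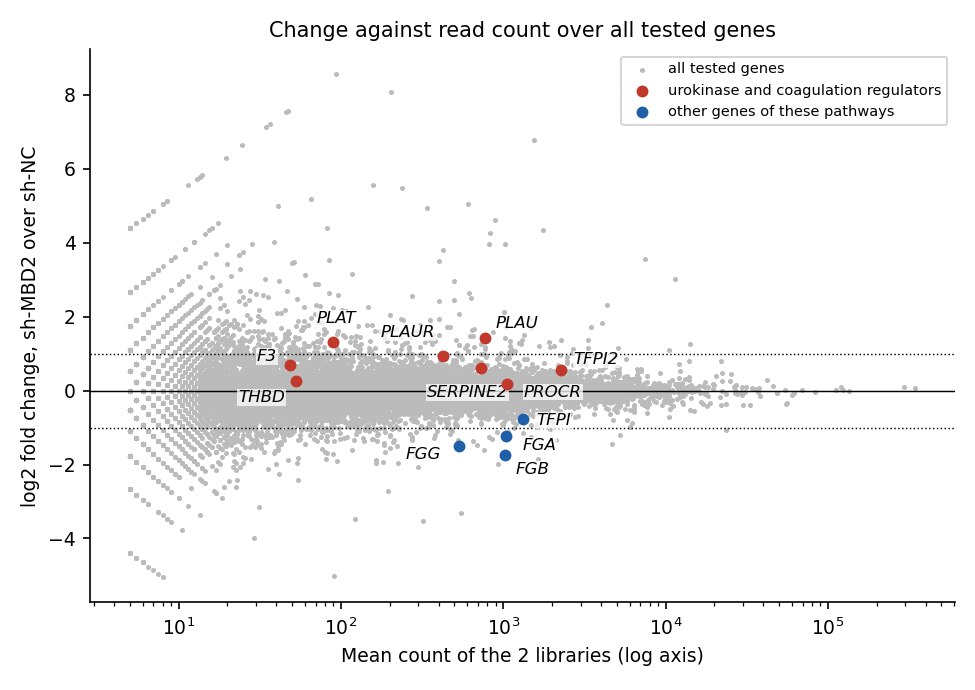
Log2FC against the mean count of the libraries (log axis) for the 17545 genes with at least 10 counts (grey), the 8 genes described here (red) and TFPI and the fibrinogen genes (blue). The red points lie above 0 and the fibrinogen genes FGA, FGB and FGG lie below -1.

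The other genes of plasminogen activation were divided in direction. Of 18 such partners, 14 had at least 10 counts, of which 6 were higher and 8 lower in sh-MBD2, with a median log2FC of -0.025. Those with the highest level, which serve as plasminogen docking sites on the cell surface among other roles, were ENO1 (2354 and 2471 TPM, log2FC -0.042), ANXA2 (1821 and 2042 TPM, log2FC -0.14) and S100A10 (682 and 985 TPM, log2FC -0.50, interval -0.56 to -0.45). Past the threshold were 2 higher genes and 1 lower of the 14, where 5.48% of all genes lay above 1 and 5.07% below -1. SERPINA5, the protein C inhibitor, which also inhibits urokinase, had 25 counts in sh-MBD2 and 2 in sh-NC, a log2FC of 3.34 with an interval from 1.63 to 6.76. ST14 (matriptase, an activator of pro-urokinase) had 11 and 4 counts and an interval on both sides of 0 (-0.30 to 3.56). SERPINI1 (neuroserpin, an inhibitor of PLAT) had 22 counts in sh-MBD2 and 86 in sh-NC, a log2FC of -1.95 (-2.72 to -1.29). LRP1, the receptor that clears urokinase bound to its inhibitor, had 1854 and 1367 counts and a log2FC of 0.43 (0.33 to 0.53). The substrate itself, PLG, had 0 and 2 counts.

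The coagulation partners were mostly lower. Of 28, 17 had at least 10 counts, with 5 higher and 12 lower in sh-MBD2 and a median log2FC of -0.33. Below -1 lay 5 of the 17, where 5.07% of all genes did. The 3 most abundant in sh-NC were the chains of fibrinogen, the clotting protein that thrombin cuts to fibrin, and all 3 were lower in sh-MBD2. FGB had 473 counts in sh-MBD2 and 1569 in sh-NC, or 41.9 and 143 TPM, a log2FC of -1.74 (-1.89 to -1.59). FGA had 628 and 1454 counts, or 29.9 and 70.9 TPM, and a log2FC of -1.22 (-1.36 to -1.08). FGG had 281 and 791 counts, or 24.2 and 69.9 TPM, and a log2FC of -1.50 (-1.70 to -1.30). Their summed level was 95.9 TPM in sh-MBD2 and 283 TPM in sh-NC. The fold change of FGB was 0.698 times (0.61 to 0.80) that of FGA, and the fold change of FGG was 0.823 times (0.69 to 0.97) that of FGA. Besides PROC, F7 was also lower, with 11 and 30 counts and a log2FC of -1.42 (-2.60 to -0.42). F2 (prothrombin) was the gene above 1, with 30 and 14 counts and a log2FC of 1.06 (0.13 to 2.12), and F9, F11, VWF, KLKB1 and SERPINC1 had 0 counts in both libraries.

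The protease-activated receptors, through which thrombin and other proteases signal to the cell, were not past the threshold. F2RL1 had 1062 counts in sh-MBD2 and 1282 in sh-NC, a log2FC of -0.28 (-0.40 to -0.16), and F2R had 857 and 1115, a log2FC of -0.39 (-0.52 to -0.26). F2RL2 was at 0.093 (-0.16 to 0.35), and F2RL3 had 0 counts. Among the 12 clade B serpins other than SERPINB2, 8 had at least 10 counts, of which 7 were higher and 1 lower in sh-MBD2, with a median log2FC of 1.001, and 4 lay above 1. With at least 100 counts the median was 0.55 and 2 lay above 1. Of all genes with at least 10 counts, 48.9% were higher and 5.48% lay above 1. SERPINB7 had 94 and 25 counts and a log2FC of 1.88 (1.25 to 2.60), and SERPINB8 had 193 and 70 counts and a log2FC of 1.45 (1.05 to 1.87). SERPINB4 had 17 counts in sh-MBD2 and 0 in sh-NC, at least 5.63-fold higher against a floor of 3 counts in that library, with the 17 counts taken as they are. The counting interval of its log2FC, which also covers the error of those counts, began at 2.04. SERPINB3, a near-identical paralog with which reads could be split, had 15 and 3 counts and a log2FC of 2.14 (0.49 to 4.74). The most abundant, SERPINB1, SERPINB6 and SERPINB9, were at 0.12, 0.21 and 0.55. The lower gene was SERPINB11, with 3 and 9 counts and an interval on both sides of 0 (-4.12 to 0.41).

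Finally, 15 transcription factors of families known to act on promoters such as those of PLAU, F3 and THBD were examined, and all had at least 10 counts. Of these, 9 were higher and 6 lower in sh-MBD2, with 3 above 1 and 1 below -1 and a median log2FC of 0.24. Over all genes, 48.9% were higher, 5.48% lay above 1 and 5.07% below -1. FOSL1 (FRA-1, an AP-1 subunit) had 354 counts in sh-MBD2 and 144 in sh-NC, a log2FC of 1.29 (1.01 to 1.58). NFKB1 (the p105 precursor of p50) had 1071 and 473 counts and a log2FC of 1.17 (1.01 to 1.33), and EGR1 had 46 and 21 counts and a log2FC of 1.104 (0.35 to 1.94). FOSL2 had the most reads, with 4406 and 2256 counts and a log2FC of 0.96 (0.88 to 1.03). JUND and SP1, also among the 3 with the highest level in sh-NC, were at -0.024 and -0.024, with intervals on both sides of 0. FOSB was the factor below -1, with 4 and 11 counts and an interval from -3.57 to 0.29. The counting interval lay above 0 for 8 of the 15 factors and below 0 for 2, and these 2 had a log2FC between -1 and 0. Whether any of these factors has a part in the values of PLAU, PLAUR or F3 was not tested.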

How the data were processed

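RNA from TFK1 cells was sequenced by the authors, with 1 library of sh-MBD2 and 1 of sh-NC. The submitters' processing notes name fastp, HISAT2 2.1.0, featureCounts, DESeq 1.18.1 and the GRCh38.p13 genome; the annotation and strand setting are not given in the sources used here. The deposited gene positions differ from those of GENCODE 29 (GRCh38) for all 9 genes, so the gene positions given are those of GENCODE 29. The shares of exonic bases in common with other genes are also from GENCODE 29 and need not describe the gene models that were counted. PROCR, for example, runs from 33759876 to 33765165 in the deposited positions and from 35172073 to 35216240 in GENCODE 29. The authors deposited raw read counts and TPM per gene. Of 63723 lines, 46 held no gene, and values repeated on several Ensembl identifiers of a symbol were kept once, which left 56638 genes and TPM summing to 1000000 in each library.

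Counts were scaled with TMM factors (edgeR 4.0.16, R 4.3.3), and log2FC was taken with a prior of 0.5 counts for the 17545 genes with at least 10 counts over both libraries. Intervals (95%) came from scipy 1.17.1: Clopper-Pearson for the split of reads, Poisson for TPM and the conditional odds ratio for pairs of genes. Reads are not independent molecules, so intervals and floors of 3 counts cover counting error only. The scripts were tested on simulated counts. Named genes are MBD2, the 9 genes, the genes that overlap them, and, in each of the 5 lists of related genes (not the marker lists), those past 1 or -1 with an interval excluding 0 and the 3 highest in sh-NC by TPM. TFPI, LRP1, PLG, ST14 and FOSB, among other genes outside this rule, and the markers of cell types, were singled out once their values were known. A gene of the lists enters their counts and medians but is not reported here by name. The 9 genes and the lists were chosen with earlier results of these data known. Alternatives were other scalings (DESeq2 1.42.0 size factors, total counts, upper-quartile factors), TPM plus 0.1 or 1, a prior of 2, and filters of 1 and 100 counts. Genes that overlap a regulator but held at most 4 counts (RN7SL368P and AC006953.1 at PLAUR, GNGT1 and AC002076.10 at TFPI2) are not discussed further.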

Additional observations from a re-analysis of the deposited data

How the results depend on the processing

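The log2FC of the 8 genes with reads kept their direction under the 6 alternatives that change a value, and none of these 54 values, MBD2 included, left its counting interval. PLAU lay between 1.35 and 1.42, PLAUR between 0.88 and 0.94, PLAT between 1.04 and 1.32 and F3 between 0.52 and 0.69. PLAU and PLAT stayed above 1 and PLAUR below 1 in each. The lists of related genes depended on genes with few reads. With log2 of TPM plus 1, the plasminogen partners had 1 gene above 1 in place of 2, the coagulation partners 0 above 1 in place of 1 and 3 below -1 in place of 5, and the clade B serpins and the promoter factors 0 below -1 in place of 1 each. With a prior count of 2, the coagulation partners had 0 genes above 1. With at least 1 count, there were 5 plasminogen partners above 1 and 2 below -1, 4 coagulation partners above 1, and 2 clade B serpins below -1. This filter also raised the calls over all genes, to 4523 above 1 and 4303 below -1 in place of 961 and 890. With at least 100 counts, there were 0 plasminogen and 0 coagulation partners above 1, 3 coagulation partners below -1, 2 clade B serpins above 1 and 0 below -1, and 0 promoter factors below -1. The promoter factors above 1 were 2 in place of 3 with at least 100 counts and with TPM plus 1. The filters change how many genes are counted, and with them the median log2FC of the clade B serpins was 1.45 (at least 1 count) and 0.55 (at least 100 counts) in place of 1.001. The median of the plasminogen partners was 0.059 with at least 1 count in place of -0.025. The scalings shifted all genes by -0.028 (deposited TPM) to 0.0089 (DESeq2 size factors) on the log2 scale. Of the 17545 genes with at least 10 counts, 374 were above 1 and 340 below -1 with TPM plus 1, in place of 961 and 890. With a prior count of 2 these were 784 and 782. Of the 11972 genes with at least 100 counts, 213 were above 1 and 127 below -1. No paired analysis was possible because there is only a single sh-MBD2 and a single sh-NC library, and for the same reason no library could be left out. Depth limits F3 and THBD, whose intervals span more than 1 on the log2 scale.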

Other observations

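The nearest gene with at least 10 counts on each side of the 9 genes in the deposited positions was also examined, a comparison chosen after the data were seen. The 18 neighbors had a median log2FC of 0.036, with 11 above 0 and 2 past 1 or -1. Over all genes with at least 10 counts, 48.9% lay above 0, 5.48% above 1 and 5.07% below -1. Both neighbors past the threshold lie beside SERPINB2: SERPINB7, a clade B serpin, at 1.88, and HMSD, with 4 counts in sh-MBD2 and 12 in sh-NC, at -1.48 (interval -3.68 to 0.13). Beside PLAU, CAMK2G (a calcium/calmodulin-dependent kinase) had 681 counts in sh-MBD2 and 690 in sh-NC, a log2FC of -0.028 (-0.18 to 0.13), and VCL (vinculin, of focal adhesions) had 5793 and 4039 counts and a log2FC of 0.51 (0.45 to 0.57). Beside PLAUR, CADM4 and SMG9 were at 0.037 and -0.088, with intervals on both sides of 0. Beside PLAT, IKBKB, a kinase that activates NF-kB, was at -0.29 (-0.43 to -0.15). Beside F3, ABCD3 (a peroxisomal transporter) was at -0.16 (-0.26 to -0.053). Beside THBD, FOXA2, a transcription factor of liver and bile duct development that lies 460 kb away, had 389 counts in sh-MBD2 and 577 in sh-NC, a log2FC of -0.58 (-0.77 to -0.39).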
